A study of Mus musculus with 6 samples.

Results

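The genes described here are 10 intestinal genes linked to type 2 immunity, namely Pla2g4c, the gasdermin genes Gsdmc, Gsdmc2, Gsdmc3 and Gsdmc4, the small proline-rich genes Sprr2a1, Sprr2a2 and Sprr2a3, Retnlb and Mptx1, out of 54446 genes in the deposited count table. They were chosen by name because their counts were close to lost in knockout libraries 2 and 3 but not in knockout library 1, so that pattern is a description here and not a finding, and no test of it is given. The 6 libraries came from intestinal epithelium of different mice, 3 per genotype. Control mice were Prkci flox/flox, and knockout mice were Prkci flox/flox with Villin-CRE, so both genotypes carried the floxed alleles and only the knockouts carried Cre. The Villin promoter drives Cre throughout the intestinal epithelium, and Prkci encodes the atypical protein kinase C iota, a regulator of epithelial polarity. All mice were co-housed and 3 to 4 months old, and 10 cm pieces described as jejunum and ileum in the series text (jejunum alone in the sample titles) were washed with 30 mM EDTA and 5 mM DTT. The labels call the material epithelial, but transcripts of goblet, tuft and immune cells were present in it. Nothing in the labels says whether mice of the same number were littermates or were handled together.

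Type 2 immunity in the small intestine is a circuit between epithelium and immune cells. Tuft cells, rare chemosensory epithelial cells, release the cytokine IL-25, group 2 innate lymphoid cells answer with IL-13, and IL-13 acts through the IL-4 receptor alpha chain and STAT6 on other epithelial cells, which then make secreted and intracellular effectors and form more goblet and tuft cells. Pla2g4c encodes a cytosolic phospholipase A2, an enzyme that releases fatty acids from membrane phospholipids. Gasdermins are pore-forming proteins, and the mouse has several neighbouring copies of Gsdmc. Sprr2a proteins belong to the family that cross-links the cornified envelope of skin and also act as antibacterial proteins in the gut, Retnlb encodes the goblet cell protein RELM-beta, and Mptx1 encodes a mucosal pentraxin.

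Several of these genes are close copies, and reads from copies are hard to assign. The first 120 coding bases of Gsdmc2, Gsdmc3 and Gsdmc4, taken from the GENCODE mouse release 21 transcripts, are printed to show how alike the copies are, with capitals at the 2 positions where the 3 are not all the same.
Gsdmc2: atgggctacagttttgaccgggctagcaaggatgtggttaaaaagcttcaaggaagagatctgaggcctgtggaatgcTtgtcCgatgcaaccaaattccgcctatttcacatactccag
Gsdmc3: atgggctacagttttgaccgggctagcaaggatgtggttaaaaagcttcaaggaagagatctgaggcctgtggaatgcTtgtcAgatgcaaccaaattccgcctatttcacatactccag
Gsdmc4: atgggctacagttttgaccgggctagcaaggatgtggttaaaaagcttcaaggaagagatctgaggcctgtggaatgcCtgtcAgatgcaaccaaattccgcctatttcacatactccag
Over aligned coding sequence Gsdmc2 and Gsdmc3 were 97.1% identical, Gsdmc2 and Gsdmc4 93.7%, and Gsdmc3 and Gsdmc4 93.8%, while Gsdmc shared 86.7% to 87.5% with the others. Of the 50-base windows of each transcript, 51.3% of Gsdmc2, 46.0% of Gsdmc3, 39.0% of Gsdmc4 and 16.1% of Gsdmc occurred in another copy. The coding sequences of Sprr2a1 and Sprr2a2 were 100% identical and both were 98.8% identical to Sprr2a3. Shared windows made up 94.7% of Sprr2a1, 96.5% of Sprr2a2 and 61.1% of Sprr2a3, and the gene models of Sprr2a1 and Sprr2a2 overlap. The split between copies is therefore uncertain, and sums over the copies are given beside the single genes.

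RefSeq promoters on GRCm38.p6 matched 6 of the 10 genes by symbol, with 7 promoters among them, because Pla2g4c has a pair of start sites. Gsdmc, Gsdmc2, Gsdmc4 and Retnlb had no entry. The 250 bases before the start site are printed for the genes with an entry, leaving out Sprr2a2 as a copy of Sprr2a1, with motif matches in capitals. Motifs searched on both strands were TTCNNNNGAA, the spacing that STAT6 prefers, and the TATA box TATAAA.
Sprr2a1, chr3:92215585-92215834, plus strand: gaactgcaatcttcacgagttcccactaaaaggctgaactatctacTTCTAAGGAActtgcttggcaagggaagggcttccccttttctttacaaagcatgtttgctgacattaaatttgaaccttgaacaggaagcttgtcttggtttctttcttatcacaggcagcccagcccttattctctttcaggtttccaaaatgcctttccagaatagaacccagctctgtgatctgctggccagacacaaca
Sprr2a3, chr3:92285054-92285303, plus strand: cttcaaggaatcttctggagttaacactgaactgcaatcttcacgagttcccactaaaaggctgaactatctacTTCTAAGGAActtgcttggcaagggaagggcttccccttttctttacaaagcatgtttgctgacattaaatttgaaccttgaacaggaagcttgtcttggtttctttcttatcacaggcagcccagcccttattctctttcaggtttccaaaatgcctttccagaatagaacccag
Pla2g4c, first start site, chr7:13325417-13325666, plus strand: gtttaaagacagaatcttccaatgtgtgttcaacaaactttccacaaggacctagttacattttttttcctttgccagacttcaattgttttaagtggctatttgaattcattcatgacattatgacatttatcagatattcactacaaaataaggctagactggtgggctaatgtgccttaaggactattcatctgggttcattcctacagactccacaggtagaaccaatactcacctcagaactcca
Pla2g4c, second start site, chr7:13329072-13329321, plus strand: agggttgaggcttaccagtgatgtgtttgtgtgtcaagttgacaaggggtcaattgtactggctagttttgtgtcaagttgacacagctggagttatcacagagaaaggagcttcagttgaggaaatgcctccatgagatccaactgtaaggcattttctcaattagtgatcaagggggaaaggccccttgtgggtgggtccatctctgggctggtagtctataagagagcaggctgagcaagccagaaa
Gsdmc3, chr15:63878559-63878808, minus strand: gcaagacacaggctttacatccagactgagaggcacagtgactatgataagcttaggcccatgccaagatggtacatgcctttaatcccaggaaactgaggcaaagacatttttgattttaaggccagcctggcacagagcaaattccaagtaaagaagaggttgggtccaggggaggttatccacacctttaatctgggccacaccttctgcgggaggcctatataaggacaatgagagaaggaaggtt
Mptx1, chr1:174330268-174330517, plus strand: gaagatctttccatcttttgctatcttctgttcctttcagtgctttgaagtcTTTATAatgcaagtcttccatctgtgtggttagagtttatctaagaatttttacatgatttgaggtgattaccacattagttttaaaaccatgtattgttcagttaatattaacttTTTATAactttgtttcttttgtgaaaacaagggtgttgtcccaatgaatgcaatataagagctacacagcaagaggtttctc
The Sprr2a2 promoter was identical to that of Sprr2a1 over all 300 bases of the RefSeq entry, and the Sprr2a3 promoter, shifted by 28 bases, was identical over the 272 bases that overlap. All 3 Sprr2a promoters held the same TTCTAAGGAA match, which begins at position -204 in Sprr2a1 and Sprr2a2 and at -176 in Sprr2a3, where -1 is the base before the start site. These are 3 copies of 1 sequence and not independent matches. Among 32851 RefSeq promoters of this length, 6.95% held TTCNNNNGAA and 13.6% held TATAAA. Mptx1 had a pair of TATAAA matches on the reverse strand, beginning at -198 and -82. The Pla2g4c and Gsdmc3 windows held neither letter pattern, which says nothing of the factors. No match overlapped a match of the other pattern.

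The libraries held 18972906 to 26687856 counts each. Prkci, the targeted gene, stood at 44.6, 46.9 and 44.0 CPM (counts scaled to 1e6 per library) in control libraries 1, 2 and 3 and at 21.5, 14.6 and 21.4 CPM in knockout libraries 1, 2 and 3, so it was lower in every knockout library and absent from none. Its log2 fold change was -1.24 (adjusted p = 0.0719, edgeR), and it passed the threshold with DESeq2 (adjusted p = 9.9e-08), without the filter on low counts (adjusted p = 0.0102, edgeR) and without knockout library 1 (adjusted p = 0.00345, edgeR). With other scalings, the replicate block (0.183) or another library left out, its adjusted p was 0.0611 to 0.399 in edgeR. Xist, the RNA that coats an inactive X, and the Y-linked Ddx3y went against the sex that the series text gives in 3 libraries, control 2, control 3 and knockout 3. Xist was high in control 3 and in knockout libraries 2 and 3. Of the controls, control 3 held the highest Pla2g4c, Gsdmc2, Gsdmc3, Gsdmc4, Retnlb and Mptx1 and the lowest Sprr2a1 and Sprr2a2, and the part of sex in these levels was not tested. Knockout library 1 had 212 genes at least 4-fold from the control mean, against 461 in knockout library 2 and 396 in knockout library 3. Values of the 10 genes are therefore given per library.

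Pla2g4c (ENSMUSG00000033847.15, chr7:13324655-13360672, mm10) was the most abundant of the 10 genes. It measured 1186, 2671 and 2939 CPM in control libraries 1, 2 and 3, with a control mean of 2265 ± 944 CPM (SD, n = 3), and 2262, 0.784 and 2.72 CPM in knockout libraries 1, 2 and 3. In raw counts this was 26964, 64099 and 70213 in the controls and 44718, 18 and 68 in the knockouts. Knockout library 1 lay inside the control range, at 99.9% of the control mean, and the other knockouts lay far below every control. The knockout mean of 755 ± 1305 CPM (SD, n = 3) describes no single library. Pla2g4c ranked 87, 30 and 28 from the top of all genes in the controls and 36 in knockout library 1, but 13370 in knockout library 2 and 11000 in knockout library 3. The lowest control exceeded knockout library 2 by 1513-fold (95% counting interval 957 to 2553) and knockout library 3 by 436-fold (344 to 561). Counting intervals cover counting error within single libraries only and not the spread between mice. They may be too narrow even for that, because amplified copies of 1 molecule are not told apart in these reads. These are bulk samples, in which fewer cells expressing a gene and less RNA per cell cannot be told apart. Because replicates are single mice, the spread between them covers the animal and its preparation together.

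**Figure D1:**
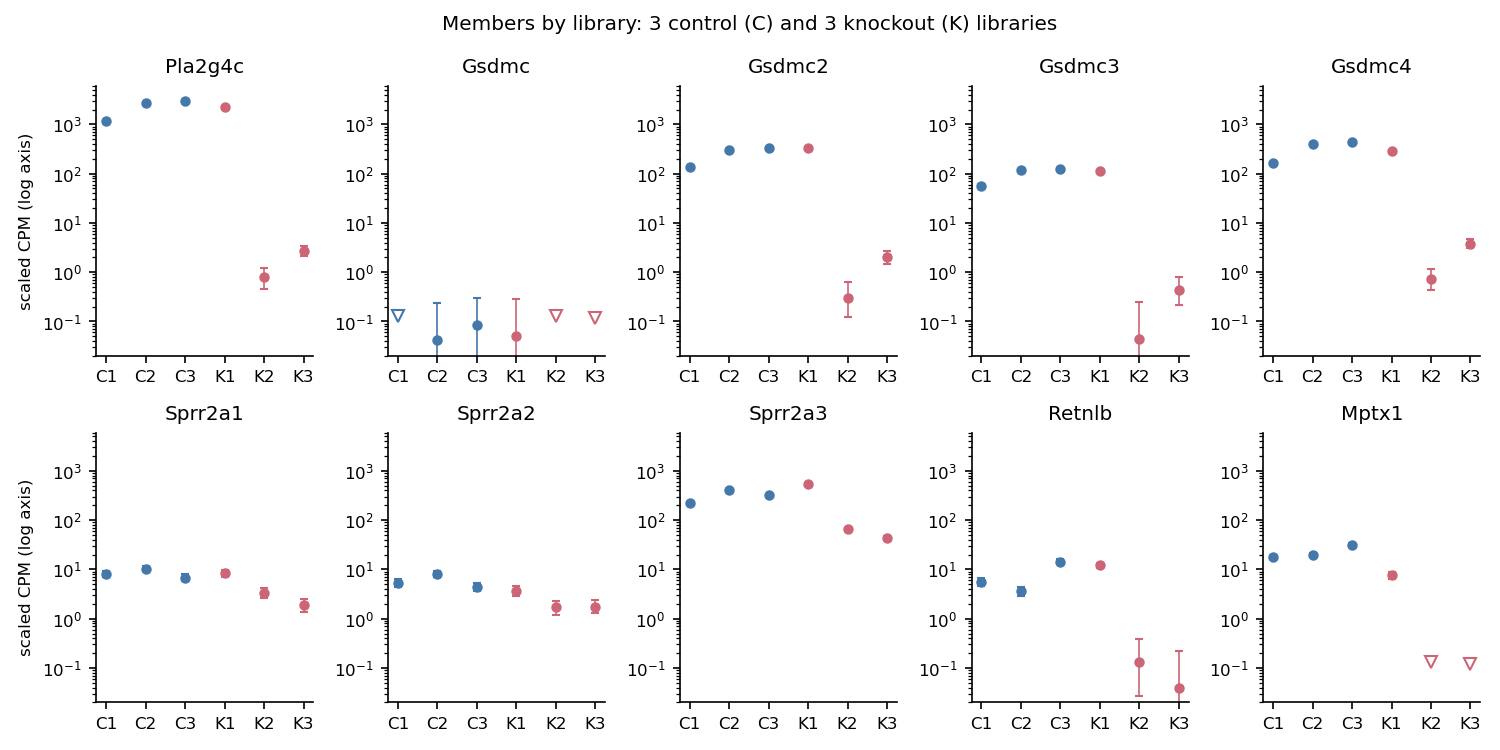
Scaled CPM of each of the 10 genes on a log axis in the 3 control (C, blue) and 3 knockout (K, red) libraries, with exact 95% counting intervals; open triangles mark libraries with 0 counts, drawn at the CPM of 3 counts. Pla2g4c runs from 1186 to 2939 CPM in the controls and stands at 2262 CPM in K1 but 0.784 and 2.72 CPM in K2 and K3, while Sprr2a3 stays at 65.9 and 44.0 CPM there.

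The expressed gasdermin copies followed Pla2g4c from library to library. Gsdmc4 (ENSMUSG00000055748.12, chr15:63891264-63912297) measured 161, 401 and 433 CPM in the controls and 293, 0.741 and 3.76 CPM in the knockouts. Gsdmc2 (ENSMUSG00000056293.12, chr15:63824346-63845177) measured 134, 298 and 336 CPM in the controls and 332, 0.305 and 2.00 CPM in the knockouts. Gsdmc3 (ENSMUSG00000055827.13, chr15:63857724-63878558) measured 57.3, 120 and 126 CPM in the controls and 114, 0.0436 and 0.441 CPM in the knockouts, where the value for knockout library 2 is 1 count. For each of these copies knockout library 1 lay within the control range and knockout libraries 2 and 3 lay below all controls. Summed over the 3 copies, the level was 352, 819 and 896 CPM in the controls (689 ± 294, SD, n = 3) and 740, 1.09 and 6.21 CPM in the knockouts. The lowest control exceeded knockout library 2 in this sum by 324-fold (219 to 500) and knockout library 3 by 56.8-fold (48.4 to 67.0). Control library 1 was the lowest control for Pla2g4c and for each expressed copy, and the highest control exceeded it 2.48-fold for Pla2g4c and 2.20-fold to 2.69-fold for the copies.

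Gsdmc itself (ENSMUSG00000079025.9, chr15:63775968-63808759), the fourth gene of the cluster, was not detectable at this depth in either genotype. It had 0, 1 and 2 counts in the controls and 1, 0 and 0 in the knockouts, where 3 counts would be 0.120 to 0.152 CPM depending on the library. A loss of Gsdmc in knockout libraries could not be seen at such levels, so the description of the gene as lost has no support in its own counts. It did not pass the expression filter, and 9 of the 10 genes did.

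The ratio of Pla2g4c to the gasdermin copies was similar among the controls, slightly lower in knockout library 1, outside the control intervals, and far lower in knockout libraries 2 and 3. Per count of Gsdmc2, Gsdmc3 and Gsdmc4 together there were 3.37, 3.26 and 3.28 counts of Pla2g4c in the controls and 3.06 (95% counting interval 3.00 to 3.12) in knockout library 1. The ratio was 0.720 (0.370 to 1.37) in knockout library 2 and 0.439 (0.325 to 0.587) in knockout library 3, from 18 and 68 counts of Pla2g4c, so Pla2g4c was further below the controls than the gasdermin sum was. Gsdmc4 supplied 45.7%, 49.0% and 48.4% of the gasdermin counts in the controls and 39.6% (38.8% to 40.4%, exact binomial) in knockout library 1. In knockout library 3 its share was 60.6% (52.5% to 68.4%) and in knockout library 2 it was 68.0% (46.5% to 85.1%), an interval that includes the control shares. Gsdmc2 made up 38.0%, 36.4% and 37.5% of these counts in the controls and 44.9%, 28.0% and 32.3% in the knockouts. Gsdmc3 made up 16.3%, 14.6% and 14.1% in the controls and 15.4%, 4.00% and 7.10% in the knockouts, where the last shares are 1 and 11 counts.

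**Figure D2:**
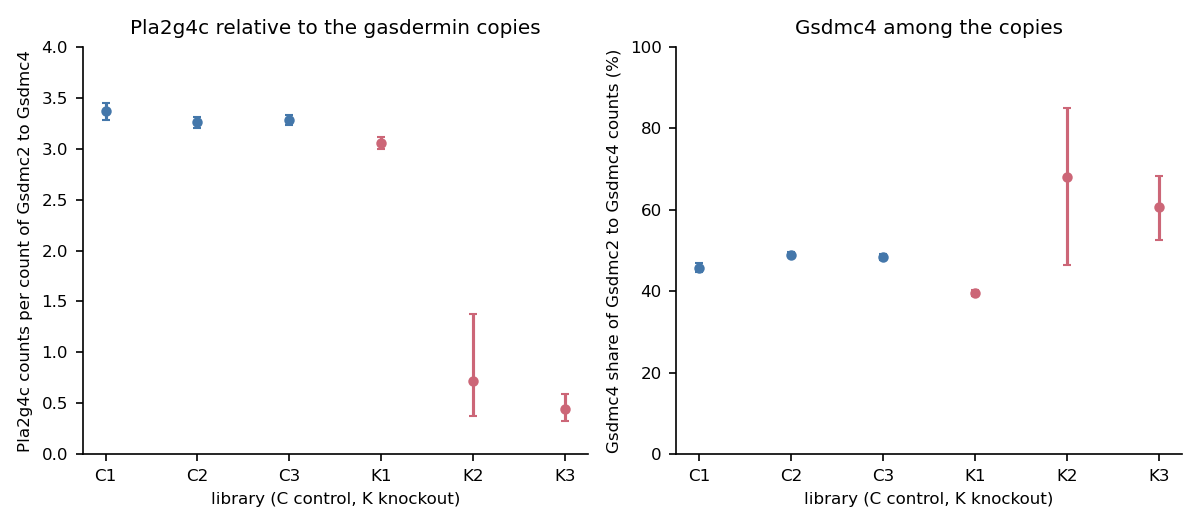
Left, counts of Pla2g4c per count of Gsdmc2, Gsdmc3 and Gsdmc4 together in each control (C) and knockout (K) library; right, the share of Gsdmc4 in those gasdermin counts in percent; bars are 95% counting intervals. The ratio lies between 3.06 and 3.37 in C1, C2, C3 and K1, and at 0.720 and 0.439 in K2 and K3.

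The Sprr2a genes were lower in knockout libraries 2 and 3 without being lost. Sprr2a3 (ENSMUSG00000074445.4, chr3:92285417-92291405) measured 227, 404 and 317 CPM in the controls and 533, 65.9 and 44.0 CPM in the knockouts. Knockout library 1 was above every control, by 1.32 times the highest, and the other knockouts were below every control. The lowest control exceeded knockout library 2 by 3.45-fold (3.25 to 3.65) and knockout library 3 by 5.16-fold (4.84 to 5.52), so 20.9% and 13.9% of the control mean remained. Sprr2a1 (ENSMUSG00000078664.2, chr3:92215799-92221911) measured 8.23, 10.3 and 6.82 CPM in the controls and 8.30, 3.40 and 1.88 CPM in the knockouts. Sprr2a2 (ENSMUSG00000068893.5, chr3:92215920-92256724) measured 5.24, 8.17 and 4.44 CPM in the controls and 3.64, 1.70 and 1.76 CPM in the knockouts. Its value in knockout library 1 was below the lowest control by 1.22-fold, within counting error (0.895 to 1.67). Sprr2a3 supplied 94.4% to 96.6% of the Sprr2a counts in the controls, 97.8% in knockout library 1, 92.8% in knockout library 2 and 92.4% in knockout library 3. The sum of the 3 genes was 241, 422 and 328 CPM in the controls and 545, 71.0 and 47.7 CPM in the knockouts.

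Retnlb (ENSMUSG00000022650.7, chr16:48816856-48818892) was present at low level, with 127, 86 and 344 counts in the controls (5.59, 3.58 and 14.4 CPM) and 239, 3 and 1 counts in the knockouts (12.1, 0.131 and 0.0400 CPM). It varied most among the controls, 4.02-fold between the highest and the lowest. The lowest control exceeded knockout library 2 by 27.4-fold (9.07 to 136) and knockout library 3 by 89.5-fold (15.6 to 3575). Mptx1 (ENSMUSG00000026531.4, chr1:174330518-174332873) measured 18.0, 19.9 and 31.7 CPM in the controls and 7.64, 0 and 0 CPM in the knockouts, from 408, 478 and 758 control counts and 151, 0 and 0 knockout counts. A floor of 3 counts per library put the lowest control at least 137-fold above knockout library 2 and at least 149-fold above knockout library 3. Unlike Pla2g4c, Mptx1 in knockout library 1 was below every control, at 32.9% of the control mean, with the lowest control 2.35-fold higher (1.95 to 2.85). The difference between these genes in that library was not tested.

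Per kilobase of exon, so that genes can be ranked, the order in the controls ran from Pla2g4c (317, 713 and 784 CPM per kilobase) through Gsdmc4 (77.2, 192 and 208), Gsdmc2 (57.8, 129 and 145), Sprr2a3 (78.8, 140 and 110), Gsdmc3 (24.6, 51.5 and 54.2), Mptx1 (22.5, 24.9 and 39.7) and Retnlb (8.03, 5.15 and 20.7) to Sprr2a1 (2.74, 3.44 and 2.27) and Sprr2a2 (1.80, 2.81 and 1.52). Gsdmc came last, at 0.0348 or less. Pla2g4c stood above all others in each control. Ranges over the controls overlapped among Gsdmc4, Gsdmc2 and Sprr2a3, between Gsdmc3 and Mptx1, and between Sprr2a1 and Sprr2a2. Within each control library Gsdmc4 was above Gsdmc2, Gsdmc3 above Mptx1 and Sprr2a1 above Sprr2a2, while the place of Sprr2a3 in its set changed. The steps between the sets and on either side of Retnlb exceeded the ranges. Places of the copies rest on an uncertain split of reads, and 94.7% of Sprr2a1 and 96.5% of Sprr2a2 windows are shared with copies. The order of Sprr2a1 and Sprr2a2 against each other and against Retnlb is therefore not settled. In knockout libraries 2 and 3 the order was different, with Sprr2a3 the highest at 22.9 and 15.3 CPM per kilobase and Pla2g4c at 0.209 and 0.727.

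In counts over the 9 genes that passed the filter, knockout libraries 2 and 3 were each below every control for 9 of 9, which was also true of 26.6% of the 15068 genes tested. They were each at least 10-fold below the lowest control for 6 of the 9 (Pla2g4c, Gsdmc2, Gsdmc3, Gsdmc4, Retnlb and Mptx1), against 0.385% of genes with a control mean of at least 1 CPM. This is the contrast by which the genes were chosen, and nothing is read from these shares. The remaining genes of that size of drop were 11 of the tuft cell list below, 1 gene on the Y chromosome and 32 others. In knockout library 1, 6 of the 9 genes lay within the control range, 2 (Sprr2a2 and Mptx1) lay below every control, and 1 (Sprr2a3) above, while 32.6% of all genes tested lay below every control there. Both Sprr2a2 and Mptx1 were below every control in all 3 knockout libraries, as were 11.7% of all genes tested.

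On the log2 CPM scale, with a prior count of 2 and the control mean taken as 0, the median of the 9 genes was -0.44, 0.33 and 0.48 in the controls and 0.10, -8.02 and -6.30 in the knockouts. The median over all genes tested was within 0.0112 of 0 in every library. A fit of the genotypes gave a median log2 fold change of -1.34 for the 9 genes, against 0.00607 over all genes, a value that lies between the libraries and matches none of them. Leaving out knockout library 1 moved it to -7.18, and leaving out knockout library 2 or 3 to -0.82. In the fit with the replicate block it was -4.74. With the 3 libraries left whose Xist and Ddx3y matched the series text (control 1, knockout 1 and knockout 2), it was -0.07, and Pla2g4c there read 1186, 2262 and 0.784 CPM.

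**Figure D3:**
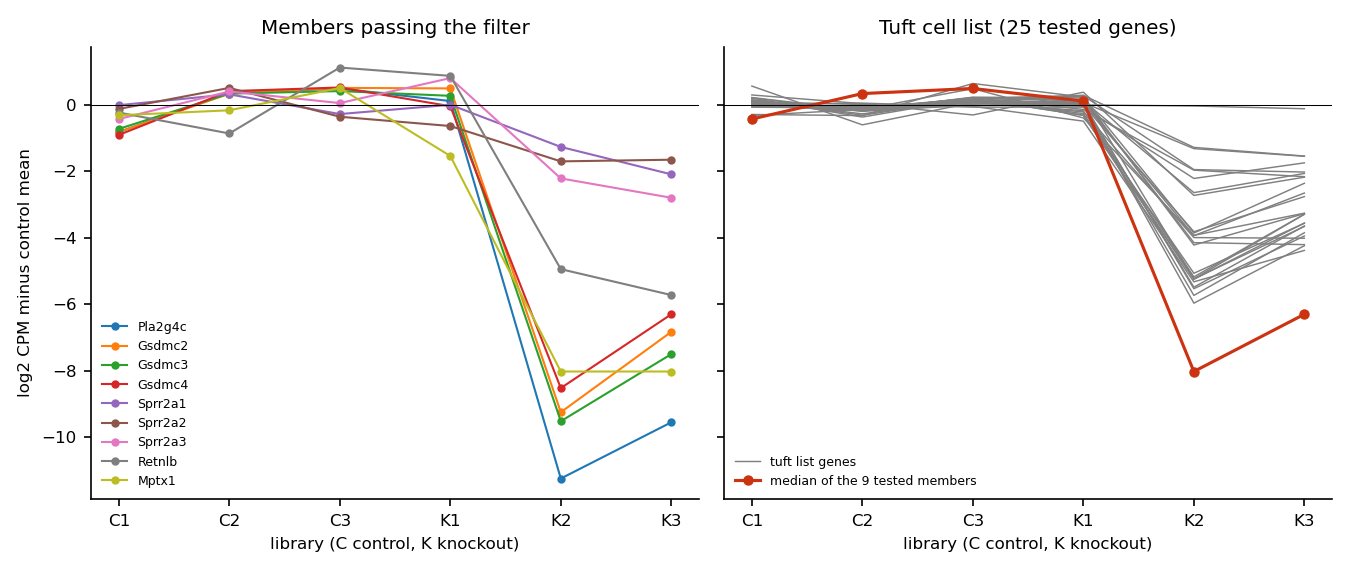
Log2 CPM minus the control mean by library (C control, K knockout) for the 9 tested genes on the left, and for the 25 tested genes of the tuft cell list in grey with the median of the 9 genes in red on the right. The median of the 9 genes is at 0.10 in K1, -8.02 in K2 and -6.30 in K3, and 24 tuft list genes bend down in the same libraries.

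Markers of tuft cells moved with these genes. Dclk1, a microtubule-associated kinase that marks tuft cells, measured 81.1, 61.3 and 83.3 CPM in the controls and 61.7, 2.13 and 6.21 CPM in the knockouts. Pou2f3, the transcription factor that tuft cells need, measured 7.83, 7.42 and 9.21 CPM in the controls and 6.48, 0.131 and 0.561 CPM in the knockouts. Both were near the controls in knockout library 1 and far below them in knockout libraries 2 and 3. Of the 26 tuft cell genes, 25 were below every control in knockout libraries 2 and 3, where 26.6% of all genes tested were, and 6 in knockout library 1, where 32.6% of all genes tested were. The exception in knockout libraries 2 and 3 was Tas1r3, a taste receptor subunit, at 5.06, 2.21 and 3.56 CPM against 3.39, 3.31 and 3.12 CPM. The summed level of the list was 431 to 526 CPM in the controls and 471, 56.7 and 71.9 CPM in the knockouts. The defining markers Sucnr1 and Gnat3 had 0 counts in knockout library 2 and 5 and 2 counts in knockout library 3. The mean log2 difference of the tested tuft genes from the controls was -0.02, -3.85 and -2.94 in knockout libraries 1, 2 and 3. The size of this drop is not compared with that of the 9 genes, which were chosen for their drop. The part of tuft cells in the levels of the 9 genes was not tested.

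Between genotypes, edgeR's quasi-likelihood test called 9 of 15068 genes (0.0597%) at an adjusted p below 0.05, and 0 genes in the fit with the replicate block. It called 0 of the 25 tested tuft genes, and 0 at an unadjusted p below 0.05, at which 9.32% of all genes were higher and 7.09% lower. DESeq2, which called 836 genes (5.55%), called 0 tuft genes as well. The median log2 fold change of the list was -1.38, against 0.00607 over all genes. Fitted without knockout library 1, one of the left-out libraries tried in turn, 24 tuft genes were called lower, where 7.44% of all genes were. Dclk1 had a log2 fold change of -1.70 (adjusted p = 0.444, edgeR) and Pou2f3 of -1.80 (adjusted p = 0.419, edgeR) with all 6 libraries.

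Transcripts of IL-25 and IL-13, the cytokines of the circuit described above, were at the edge of detection. The transcripts of the IL-4 receptor alpha chain and of STAT6 did not follow the 9 genes. Il4, Il5, Il9 and Il13 had at most 1 count in any library. Il25, the tuft cell cytokine, had 9, 12 and 4 counts in the controls and 10, 0 and 2 counts in the knockouts. Il33, another listed cytokine, was well detected, at 12.6, 26.8 and 42.6 CPM in the controls and 14.8, 40.8 and 27.8 CPM in the knockouts. Il4ra, the receptor chain shared by IL-4 and IL-13, measured 88.1, 71.0 and 79.4 CPM in the controls and 94.8, 137 and 116 CPM in the knockouts, higher in each knockout than in each control, with a log2 fold change of 0.54 (adjusted p = 0.183, edgeR). Stat6, the transcription factor below it, measured 132, 140 and 131 CPM in the controls and 149, 144 and 136 CPM in the knockouts. The receptor transcripts that did follow the pattern were Il1rl1, the IL-33 receptor, at 7.57, 14.2 and 19.3 CPM against 31.6, 0.261 and 1.32 CPM, and Il17rb, the IL-25 receptor chain, at 9.64, 5.33 and 8.12 CPM against 8.85, 1.74 and 2.52 CPM. Jak2, the most abundant gene of the list, measured 297 to 308 CPM in the controls and 311, 240 and 257 CPM in the knockouts. Of 23 listed signalling genes 16 were tested and edgeR called 0, with 6 higher and 0 lower at an unadjusted p below 0.05, and DESeq2 called Crlf2 and Jak3 higher. The list's median log2 fold change was 0.11, and its mean level differed from the controls by 0.44, 0.15 and 0.09 in knockout libraries 1, 2 and 3.

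Other epithelial effectors that type 2 cytokines induce showed the same libraries low for some genes. Ang4, an antimicrobial ribonuclease, measured 434, 960 and 703 CPM in the controls and 460, 33.0 and 15.1 CPM in the knockouts (log2 fold change -2.05, adjusted p = 0.416, edgeR). Pnliprp2, a lipase, measured 134, 397 and 271 CPM in the controls and 174, 17.8 and 17.3 CPM in the knockouts (log2 fold change -1.94, adjusted p = 0.355, edgeR). For both genes knockout library 1 lay inside the control range and the other knockouts lay far below every control. Clca1, a goblet cell protease, measured 4126, 4419 and 5344 CPM in the controls and 3701, 2514 and 2731 CPM in the knockouts, below every control throughout (log2 fold change -0.63, adjusted p = 0.217, edgeR). Cd177, a neutrophil surface protein gene, went the other way, at 1.67, 2.46 and 0.921 CPM in the controls and 1.97, 20.4 and 20.8 CPM in the knockouts. Of 18 listed effectors, 16 were in the table and 8 were tested. Those below every control in knockout libraries 2 and 3 were 3 of the 16 (Ang4, Pnliprp2 and Clca1). The test of edgeR called 0 of these, with 1 higher and 2 lower at an unadjusted p below 0.05, and DESeq2 called Cd177 higher and Clca1 lower. The list's median log2 fold change was -0.70.

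Markers of the cells that make or receive type 2 cytokines were few. Of 17 listed genes of mast cells, eosinophils and group 2 lymphoid cells, 7 were tested and edgeR called 0, with 1 higher and 2 lower at an unadjusted p below 0.05, and DESeq2 called Areg higher and Kit lower. Siglecf, which tuft cells also express, measured 26.0, 20.5 and 26.7 CPM in the controls and 21.3, 0.741 and 1.92 CPM in the knockouts. Hpgds, a prostaglandin D synthase, measured 6.69, 5.83 and 6.49 CPM in the controls and 5.01, 1.18 and 1.76 CPM in the knockouts. Both were below every control in knockout libraries 2 and 3. Kit, a receptor of mast cells and of some secretory epithelial cells, measured 29.4, 36.5 and 36.5 CPM in the controls and 23.9, 11.1 and 14.8 CPM in the knockouts. These were the 3 of the 17 listed genes below every control in knockout libraries 2 and 3. Areg, an epidermal growth factor receptor ligand, went the other way there, at 9.77, 6.12 and 6.99 CPM in the controls and 8.35, 34.5 and 28.0 CPM in the knockouts. The mast cell protease gene Mcpt1 had 24 to 54 counts in the controls and 126, 25 and 92 in the knockouts. Mcpt2, another such gene, had 7 to 28 counts in the controls and 42, 13 and 46 in the knockouts. In CPM both were above every control in knockout libraries 1 and 3 and inside the control range in knockout library 2. The transcription factor gene Rora stayed inside the control range, with 28 to 64 counts in the controls and 51, 53 and 39 in the knockouts.

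Goblet cells, the source of Retnlb, did not show the pattern as a list. Of 16 goblet cell genes all were tested, edgeR called 0, 1 was higher and 3 were lower at an unadjusted p below 0.05, and DESeq2 called Clca1 lower. The summed level was 26190, 19844 and 22414 CPM in the controls and 19216, 21001 and 21056 CPM in the knockouts, and the genotypes overlapped. Enterocyte genes summed to 60362 to 71621 CPM in the controls and 63154 to 82876 CPM in the knockouts. Of 14 enterocyte genes edgeR called 0, with 2 higher and 1 lower at an unadjusted p below 0.05, and DESeq2 called 0.

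Position along the intestine is one of the features in which segments could differ, and it was followed with the marker lists. Fabp6, an ileal bile acid binding protein, measured 52.7, 232 and 188 CPM in the controls and 84.2, 312 and 818 CPM in the knockouts. Gata4, a transcription factor of the proximal small intestine, measured 115, 118 and 126 CPM in the controls and 121, 115 and 107 CPM in the knockouts. Fabp6 was highest in knockout libraries 2 and 3 and lowest in control library 1. The ileum list differed from the controls by -0.31, 0.47 and 0.95 on the log2 scale in knockout libraries 1, 2 and 3, with 8 of 8 genes tested, 0 called by edgeR, 0 at an unadjusted p below 0.05 and 0 by DESeq2. In the fit without knockout library 1, 3 of the 8 were called higher, where 1549 of all 15470 genes tested in that fit were called higher. The proximal list differed from the controls by -0.34, -0.24 and -0.11 in knockout libraries 1, 2 and 3, with a median log2 fold change of -0.39. Of its 10 genes, 3 were below every control in knockout libraries 2 and 3, where 26.6% of all genes tested were. Of 9 tested proximal genes edgeR called 0, with 2 higher and 2 lower unadjusted, and DESeq2 called Ada higher. In the fit without knockout library 1, 1 was called higher and 2 lower. Of 5 tested colon genes edgeR called 0, with 1 higher and 1 lower unadjusted, and DESeq2 called Saa1 higher. The part of segment position in the levels of the 9 genes was not tested.

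**Figure D4:**
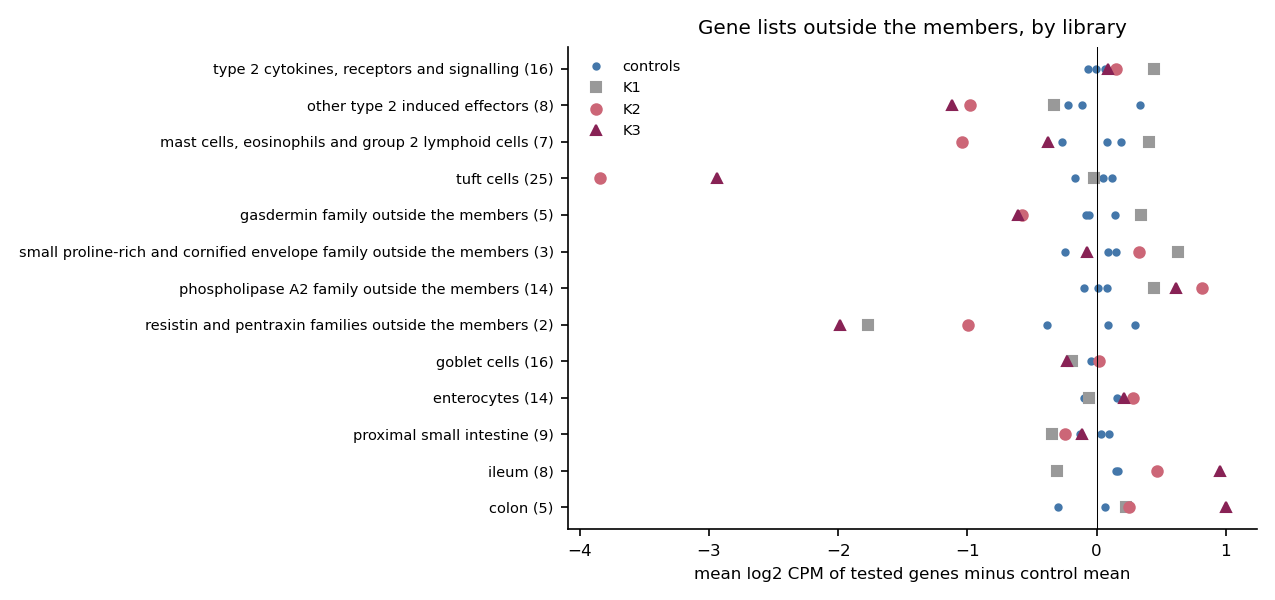
Mean log2 CPM of the tested genes of each list (number in brackets) minus the control mean, with 1 point per library; blue points are the controls and K1, K2 and K3 the knockouts. The tuft cell list is at -0.02 in K1, -3.85 in K2 and -2.94 in K3, and the type 2 signalling list is at 0.44, 0.15 and 0.09.

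The relatives of these genes did not share their pattern as families. Gsdmd, the gasdermin cleaved by inflammatory caspases, measured 247, 246 and 230 CPM in the controls and 328, 336 and 284 CPM in the knockouts, higher in every knockout (log2 fold change 0.39, adjusted p = 0.183, edgeR). Gsdme measured 34.9, 27.5 and 28.9 CPM in the controls and 28.9, 39.4 and 44.7 CPM in the knockouts. The gasdermin relative that did follow was Gsdmcl-ps, a transcribed pseudogene 2151 bases beyond Gsdmc4, at 0.704, 1.75 and 2.72 CPM in the controls and 2.88, 0 and 0.0400 CPM in the knockouts. Whether its few reads come from the far more abundant Gsdmc copies cannot be told from gene counts. Of 5 tested gasdermins outside the 10 genes edgeR called 0, with 1 higher and 0 lower at an unadjusted p below 0.05, and DESeq2 called Gsdmd higher.

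Among other phospholipases A2, Pla2g4a, the cytosolic enzyme that releases arachidonic acid, measured 6.64, 7.75 and 8.96 CPM in the controls and 9.005, 6.53 and 5.05 CPM in the knockouts, above every control in knockout library 1 and below every control in the others by a small margin. Pla2g12b, the most abundant of the others, measured 61.4 to 67.3 CPM in the controls and 56.9 to 62.8 CPM in the knockouts. Of 14 tested family members edgeR called 0, with 7 higher and 0 lower at an unadjusted p below 0.05, and DESeq2 called Pla2g5, Pla2g15 and Pla2g16 higher. The family's median log2 fold change was 0.78, opposite in sign to that of Pla2g4c. Of 19 listed genes of the small proline-rich and cornified envelope family, 11 had 0 counts in all libraries and 3 were tested, with 0 called by edgeR, 1 higher unadjusted and Sprr1a higher by DESeq2. Sprr1a measured 2.73, 2.33 and 3.60 CPM in the controls and 9.41, 3.83 and 7.17 CPM in the knockouts. Mptx2, a pentraxin of Paneth cells, measured 51.6, 167 and 62.5 CPM in the controls and 13.8, 15.6 and 5.13 CPM in the knockouts, so it was below every control in knockout library 1 too (log2 fold change -3.02, adjusted p = 0.113, edgeR). In the resistin and pentraxin list 2 genes were tested, edgeR called 0, Mptx2 was lower unadjusted, and DESeq2 called it lower.

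The neighbours of the Gsdmc, Sprr2a, Pla2g4c and Retnlb loci within 250 kb were compared next, leaving out genes with 20 counts or fewer in all. Beside the Gsdmc cluster, Fam49b, 16800 bases away, measured 51.5, 54.2 and 49.6 CPM in the controls and 56.0, 45.6 and 40.2 CPM in the knockouts, below every control in the same libraries but by a small margin. Around Pla2g4c, Zswim9 and Lig1 overlapped between genotypes. Gm24909, a small non-coding RNA annotated inside Pla2g4c, had 91, 107 and 214 counts in the controls and 101, 1 and 1 in the knockouts, and whether its reads come from Pla2g4c itself cannot be told from gene counts. Pla2g4c-ps, a pseudogene 439 bases from Pla2g4c, had 12 to 24 counts in the controls and 16, 1 and 0 in the knockouts. The same limit holds for its reads and for those of Gsdmcl-ps beside the Gsdmc copies. Sprr2b, 25215 bases from Sprr2a3, measured 0.528, 1.29 and 0.879 CPM in the controls and 1.26, 0.436 and 0.120 CPM in the knockouts. Below every control in knockout libraries 2 and 3, as 26.6% of all genes tested were, stood 2 of 3 neighbours of the Gsdmc cluster (Gsdmcl-ps and Fam49b), 2 of 4 of Sprr2a (Gm37752 and Sprr2b), 2 of 4 of Pla2g4c (Gm24909 and Pla2g4c-ps) and 0 of 4 of Retnlb (Morc1, Trat1, Dzip3 and Cip2a).

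**Figure D5:**
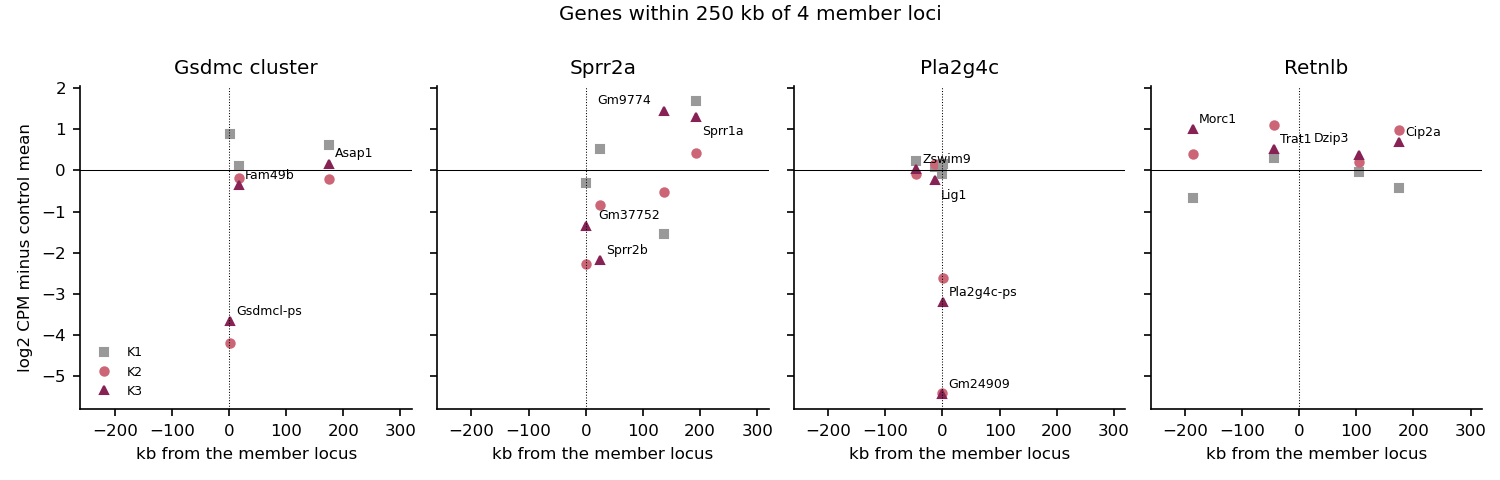
Log2 CPM (prior count 2) minus the control mean in K1, K2 and K3 for genes within 250 kb of 4 of the loci, against distance in kb from the locus edge. Gsdmcl-ps, Gm24909 and Pla2g4c-ps are the lowest in K2 and K3, Fam49b is slightly below the controls there at 45.6 and 40.2 CPM, and the Retnlb neighbours are not below every control.

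Among the 10 genes whose 6 library values came closest to the median profile of the 9 genes, by root mean square difference on the log2 CPM scale, were Rgs22 (0.93), Gm24909 (1.16), Ccdc129 (1.17), Sucnr1 (1.25), Vmn2r26 (1.37), Tmem229a (1.40), Gnat3 (1.41), Sh2d7 (1.42) and Gm8113 (1.42). Rgs22, annotated as a regulator of G-protein signalling, measured 7.52, 6.50 and 9.25 CPM in the controls and 7.23, 0.0436 and 0.0400 CPM in the knockouts, where each of the last values is 1 count. Sucnr1, the succinate receptor of tuft cells, measured 6.20, 4.71 and 5.23 CPM in the controls and 5.36, 0 and 0.200 CPM in the knockouts. Sucnr1, Gnat3 and Sh2d7 were in the tuft cell list. These 9 genes were near the controls in knockout library 1 or below them, and each was far below the controls in knockout libraries 2 and 3. Likeness over 6 libraries from 6 mice says nothing of shared control.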

How the data were processed

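Whole-number counts of reads for 54446 genes in 6 libraries, as the authors deposited them, carry no normalization. The submitters' processing notes name STAR 2.5.0a, Trim Galore, FastQC and bcl2fastq 2.17 with the build mm10. How reads were counted, with which strand setting and annotation, is not given in the sources used here. Overlapping genes and antisense pairs may therefore share reads. From the counts, edgeR 4.0.16 (R 4.3.3) used trimmed-mean scaling, its default filter (minimum count 10), a two-sided quasi-likelihood test of genotype alone, and Benjamini-Hochberg adjustment over the 15068 genes tested, with 0.05 as the threshold. For CPM, counts were scaled to 1e6 per effective library size. Log2 profiles used a prior count of 2. Intervals for ratios and shares were exact binomial ones at 95%. On simulated counts for 15068 genes, 200 genes were changed in each of 3 sets. There, 79.7% of 4-fold and 96.7% of 16-fold changes were recovered and 7.68% of calls were false. Recovery of a drop seen only in knockout libraries 2 and 3 was not tested. Rgs22 and Sucnr1, far below the controls in those libraries, were not called with all 6 libraries (adjusted p = 0.540 and 0.543, edgeR).

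The 10 genes and all lists were chosen with earlier results of these data known. Named genes were the 10 themselves, Prkci, Xist, Ddx3y, the 10 nearest in profile and, per list, called or most abundant genes and up to 3 nearest in profile with at least 1 CPM in the controls. Il4ra, Stat6, Il25, Il33, Pou2f3, Tas1r3, the interleukins Il4, Il5, Il9 and Il13, the genes called by DESeq2, the neighbours of the loci, Gata4, Fabp6, Mcpt1, Mcpt2 and Rora were added after their values were seen, where the rule did not name them. Not every gene that the rule chose is reported here. Per replicate number, the deviations from the group means correlated across genes at 0.117, 0.119 and 0.149, against -0.143 to 0.00929 for other pairs. By a threshold of 0.1 the numbers were treated as pairs, from the data and not from the labels, in the fit with the replicate block only. All other fits, with the main one, left this pairing out. The counts of genes called, over all genes and over the type 2, tuft cell and related-gene lists, and the fold changes of the 10 genes and of the genes printed with an adjusted p were also computed with DESeq2 size factors in edgeR, with unscaled totals, without the filter, with DESeq2 1.42.0, with the replicate block, and without each library in turn. The nearest profiles were recomputed with DESeq2 size factors and a prior count of 0.5, and other values have no alternative. A fit without the 3 libraries in which Xist and the stated sex disagreed was added after seeing the data.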

Additional observations from a re-analysis of the deposited data

How the results depend on the processing

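The number of genes called between genotypes depended on the processing. It was 9 with edgeR, 16 with library totals and no scaling, 284 without a filter on low counts, 836 with the DESeq2 Wald test and 0 with the replicate block, and 0 to 2700 when each library was left out in turn, with 2700 reached without knockout library 1. It was 0 without the 3 libraries with an Xist level opposite to their stated sex. Of the type 2 signalling, effector and leukocyte lists, 0 genes were called by edgeR, 2 without the filter, 6 by DESeq2 and 0 to 14 when leaving out a library. Tuft genes called were 24 without knockout library 1 and 0 with any other single library left out. Relatives of the 10 genes called were 0 by edgeR, 1 without the filter, 6 by DESeq2 and 0 to 6 when leaving out a library. The median log2 fold change of the 9 genes ranged from -7.18 without knockout library 1 to -0.82. Under the replicate block it was -4.74, with Pla2g4c at -8.89, and the block changed no list's number of calls. Signs turned only without the 3 Xist-discordant libraries, to 0.31 for Gsdmc2, 0.39 for Sprr2a3 and 0.12 for Retnlb, where a single control remained. The cause of these shifts was not tested beyond the libraries and filters named. With prior count 0.5, 8 of the 10 genes nearest in profile were shared, and with DESeq2 size factors 10 of 10. Depth limits Gsdmc, Retnlb, Mptx1 and Gsdmc3 in knockout libraries 2 and 3, where 0 to 11 counts were seen.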
